A study of Homo sapiens with 4 samples.

Results

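The sirtuins are 7 enzymes, SIRT1 to SIRT7, and every probe named for any of them was taken by gene symbol. This gave 12 of 47323 probes and 7 of the 20045 genes named by the array. The family was chosen with the siPATZ1 against siCTRL differences of these same arrays in view, and those differences are therefore given as a description, without a test. Biotin-labelled RNA of cells labelled HepG2 was hybridized to 4 Illumina HumanHT-12 v4 BeadChips. HepG2 is a line derived from a human liver cancer. The siPATZ1 group is 2 arrays of cells given siRNA against PATZ1, a zinc finger transcription factor with a POZ domain. The siCTRL group is 2 arrays of cells given a scrambled siRNA. Both groups had 60 pmol of siRNA by reverse transfection and were collected after 48 h. The labels give each array as a separate sample but do not say that the samples came from separate cultures, so the spread between them, and any p-value built on it, may be technical.

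Sirtuins remove acetyl and other acyl groups from lysines, or transfer ADP-ribose, and they consume NAD in doing so, which ties their activity to the NAD supply of the cell. SIRT1, SIRT6 and SIRT7 are known as nuclear enzymes, SIRT2 as mainly cytosolic, and SIRT3, SIRT4 and SIRT5 as mitochondrial. In liver they are known for control of gluconeogenesis, fatty acid oxidation, amino acid catabolism and the urea cycle.

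The arrays had between 15236 and 15980 detected probes in siPATZ1 cells and between 14222 and 14384 in siCTRL cells, and their number limits the precision of every value. A probe is called detected where its detection p-value, which ranks its signal against the negative control beads of the same array, was under 0.01. None of the 3 PATZ1 probes reached detection, the nearest having a detection p-value of 0.0649. The knockdown thus cannot be checked on these arrays. The study itself reports reduced PATZ1 mRNA by qRT-PCR and reduced protein by western blot in HepG2 cells given siRNA against PATZ1. Of 20 hepatocyte and HepG2 genes with a probe, 17 were detected on no array, among them AFP and APOA1. The 3 detected on all arrays were ALB (signals 157.5 to 202), FOXA1 (303.9 to 344.2) and FOXA2 (155.6 to 192.1). All 3 lay below the median signal of detected probes, which was 365 to 410 over the arrays. The HepG2 label is thus not borne out by these genes, and the identity of the cells was not tested otherwise. The summed signal of these 20 genes was 2042 to 2174 in siPATZ1 cells and 1933 to 2113 in siCTRL cells. Of 5 epithelial genes, KRT8, KRT18 and KRT19 were detected on all arrays and CDH1 and EPCAM on none, with sums of 6752 to 7069 in siPATZ1 cells and 4943 to 6199 in siCTRL cells. Of 9 fibroblast and mesenchymal genes 5 were detected on no array and only VIM on all, with sums of 8164 to 8375 in siPATZ1 cells and 5983 to 6736 in siCTRL cells. None of 5 endothelial genes was detected, and of 5 leukocyte genes 3 were detected on no array and CD68 on all. Endothelial sums were 483.8 to 499.6 in siPATZ1 cells and 419.7 to 441.3 in siCTRL cells, and leukocyte sums were 1432 to 1455 in siPATZ1 cells and 1403 to 1518 in siCTRL cells. The part of the epithelial and mesenchymal sums in the differences below was not tested.

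The start regions of SIRT4 and SIRT5 are shown first, because these were the sirtuins that differed most between the groups, in opposite directions. The windows are RefSeq's, on GRCh38.p14, and hold 250 bases before and 50 after an annotated start. Of the 7 genes, 6 had windows, 9 in all. SIRT4 has a pair of windows on the plus strand of chromosome 12, at chr12:120291939-120292238 and chr12:120302071-120302370. SIRT5 has a pair of overlapping windows on the plus strand of chromosome 6, and the one at chr6:13574279-13574578 is given. Capitals mark the letters GGGAGG on either strand, so that CCTCCC is also in capitals.
SIRT4, first window: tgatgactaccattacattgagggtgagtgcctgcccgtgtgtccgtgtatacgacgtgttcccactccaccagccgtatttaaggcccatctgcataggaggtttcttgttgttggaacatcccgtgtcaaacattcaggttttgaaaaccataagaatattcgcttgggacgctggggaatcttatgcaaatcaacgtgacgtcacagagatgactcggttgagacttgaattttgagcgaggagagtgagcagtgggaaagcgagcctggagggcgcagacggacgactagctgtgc
SIRT4, second window: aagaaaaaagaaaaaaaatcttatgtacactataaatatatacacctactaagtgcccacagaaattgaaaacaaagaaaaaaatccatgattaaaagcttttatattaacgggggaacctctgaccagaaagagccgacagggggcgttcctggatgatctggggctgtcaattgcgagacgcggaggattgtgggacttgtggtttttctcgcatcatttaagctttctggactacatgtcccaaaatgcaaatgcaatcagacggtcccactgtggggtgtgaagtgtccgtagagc
SIRT5: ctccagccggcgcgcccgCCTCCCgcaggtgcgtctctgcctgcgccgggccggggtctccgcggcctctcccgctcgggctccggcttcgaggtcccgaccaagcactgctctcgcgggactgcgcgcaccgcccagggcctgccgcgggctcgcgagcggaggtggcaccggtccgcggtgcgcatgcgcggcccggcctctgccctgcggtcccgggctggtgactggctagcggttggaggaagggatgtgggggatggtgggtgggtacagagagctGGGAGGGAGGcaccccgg

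The letters GGGGAGG, which lie within the PATZ1 site that the study mutated in a reporter, were in none of the 9 sirtuin windows on either strand, against 24.4% of 35116 windows of 27305 genes. The shorter GGGAGG, which every GGGGAGG contains, was looked for after the sequences had been seen. It was in 49.3% of all windows and in 6 of the 9 sirtuin windows, those of SIRT1, SIRT2, SIRT5 and SIRT6. Neither SIRT4 window holds it, as their lack of capitals shows, and the single SIRT3 window does not. The SIRT5 window above holds it 3 times, with the last 2 matches overlapping. The SIRT4 windows were 50.3% and 42.3% G or C and the SIRT5 windows 76.3% and 74.7%, beside a median of 58.7% over all windows. A match is a description of letters and not a binding site.

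Among the 12 sirtuin probes, 6 were detected, each on all 4 arrays, and the other 6 were detected on none. The detected probes stand for 5 genes, SIRT1, SIRT2, SIRT4, SIRT5 and SIRT7. Every probe of SIRT3 and SIRT6 was below the detection threshold, so these genes have no level and no fold here. No sirtuin passed the detection filter through a single group.

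**Figure D1:**
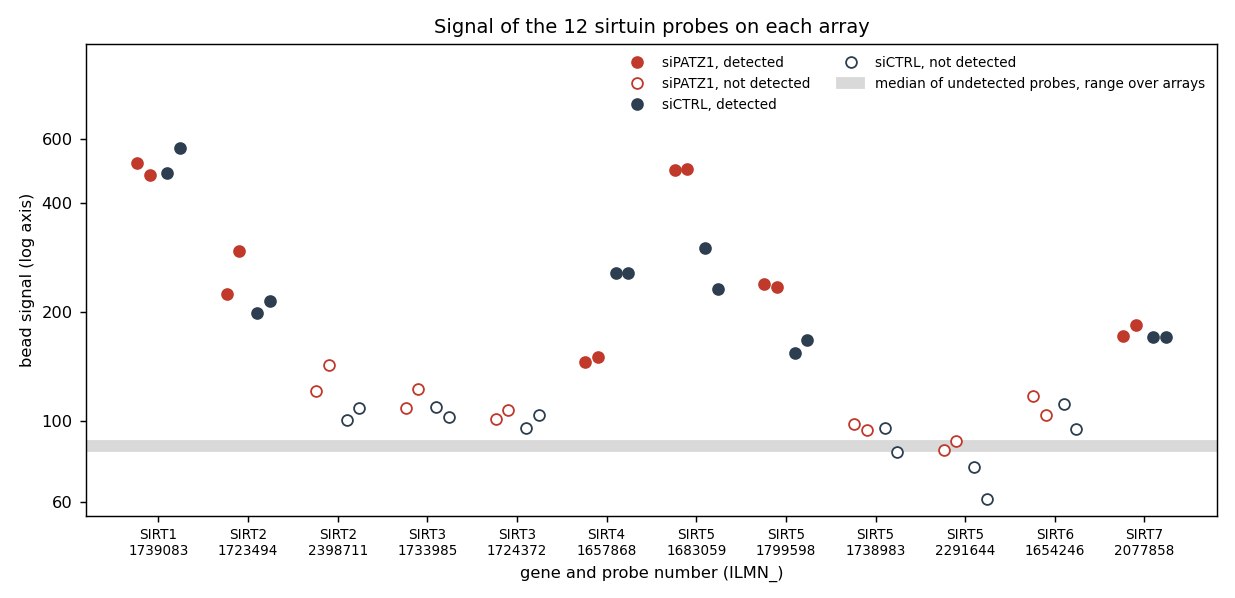
Bead signal (log axis, as deposited, without background subtraction) of each sirtuin probe on the 2 siPATZ1 arrays and the 2 siCTRL arrays, with filled points where the probe was detected and open points where it was not. The grey band is the range over the arrays of the median signal of undetected probes, 82.8 to 88.6. SIRT4 had signals of 146.2 and 150.6 in siPATZ1 cells and 257.1 and 256.3 in siCTRL cells, and probe ILMN_1683059 of SIRT5 had 495 and 497.8 in siPATZ1 cells and 301.6 and 231.4 in siCTRL cells.

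SIRT4 is a mitochondrial enzyme with ADP-ribosyltransferase and lipoamidase activities, known for restraining glutamate dehydrogenase. Its only probe, ILMN_1657868 (NM_012240), had deposited signals of 146.2 and 150.6 in siPATZ1 cells, against 257.1 and 256.3 in siCTRL cells. Both siPATZ1 arrays were below both siCTRL arrays, and the arrays of a group lay close together. After background correction and quantile normalization the log2 intensity was 6.27 and 6.24 in siPATZ1 cells, against 7.67 and 7.70 in siCTRL cells. The log2 difference, siPATZ1 minus siCTRL, was -1.43 (SE 0.12, n = 2 arrays per group), a 2.69-fold lower value in siPATZ1 cells. Each siPATZ1 array was lower than each siCTRL array by a similar amount, with differences between -1.46 and -1.40. In RNA from a whole culture, fewer cells of a type and less RNA per cell cannot be told apart.

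The size of the SIRT4 difference depended on the background correction. The siPATZ1 signals were above the median of undetected probes, which was 83.3 and 88.6 on those arrays, but close to the detection threshold, with a detection p-value of 0.00779 on each. The detection p-value was 0 on both siCTRL arrays. Without background correction the log2 difference was -0.93, and with the authors' scaled table it was -0.90. The ratio of the deposited mean signals was 1.73-fold lower in siPATZ1 cells. SIRT4 was lower by more than 1.4-fold in the 8 alternatives that moved its value, from -1.45 to -0.90. The other 5, namely the detection filters, the mean of kept probes and the replicate block, left the value of this single probe as it was.

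SIRT5 is the mitochondrial enzyme that removes succinyl, malonyl and glutaryl groups from lysines. Of its 4 probes, ILMN_1683059 and ILMN_1799598, both placed on the transcript NM_012241, were detected. ILMN_1683059 had deposited signals of 495 and 497.8 in siPATZ1 cells, against 301.6 and 231.4 in siCTRL cells. The siPATZ1 arrays were nearly equal, the siCTRL arrays were not, and the groups did not overlap. Its log2 intensities were 8.67 and 8.63 in siPATZ1 cells, against 7.98 and 7.49 in siCTRL cells, a difference of 0.92 (SE 0.17, n = 2 arrays per group) or 1.89-fold higher. This size varied with the siCTRL array used, as it was 1.16 without siCTRL 1 and 0.68 without siCTRL 2. The alternatives lay between these values and past 1.4-fold.

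ILMN_1799598 gave the same direction at a smaller size. Its signals were 239.5 and 234.6 in siPATZ1 cells, against 154.4 and 167.5 in siCTRL cells, again without overlap. The log2 difference was 0.66 (SE 0.13), or 1.58-fold higher. The siCTRL array with the lower value was siCTRL 1 for this probe and siCTRL 2 for ILMN_1683059. The probes ILMN_1738983 and ILMN_2291644, placed on the transcript NM_031244, were not detected on any array. Their signals were 94.58 to 98.2 and 83.56 to 88.3 in siPATZ1 cells, against 82.49 to 95.9 and 61.31 to 74.87 in siCTRL cells, near the level of undetected probes. The higher signal of SIRT5 in siPATZ1 cells was thus measured on probes annotated to NM_012241. The probes annotated to NM_031244 could not be compared at this signal. Whether a probe also matches the other transcript was not checked, so the rise is not assigned to 1 transcript.

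SIRT3 is the main deacetylase of mitochondria. ILMN_1733985 had signals of 109.2 and 123 in siPATZ1 cells, against 109.8 and 103 in siCTRL cells. ILMN_1724372 had 101.5 and 107.9 in siPATZ1 cells, against 95.68 and 104.4 in siCTRL cells. The groups overlapped for both probes, which lay somewhat above the median of undetected probes on every array but were not detected.

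SIRT1, the nuclear deacetylase of histones and of transcription factors such as the FOXO proteins, had signals of 515.4 and 477.7 in siPATZ1 cells, against 483.9 and 568 in siCTRL cells. These overlapped between the groups. After quantile normalization the log2 intensities of its probe ILMN_1739083 were 8.74 and 8.56 in siPATZ1 cells, against 8.80 and 9.09 in siCTRL cells, and no longer overlapped. The log2 difference was -0.29 (SE 0.15), and it ranged from -0.44 to -0.15 over the alternatives, under 1.4-fold in each. The gap between the nearest arrays of the groups, siPATZ1 1 and siCTRL 1, was -0.06.

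SIRT2 is known as a deacetylase of tubulin. Its detected probe ILMN_1723494 had signals of 224.5 and 295.7 in siPATZ1 cells, against 199.2 and 214.5 in siCTRL cells. Most of this difference came from siPATZ1 2. After normalization siPATZ1 1 lay between the siCTRL arrays, at 7.24 beside 7.70 for siPATZ1 2, against 7.15 and 7.33 in siCTRL cells. The log2 difference was 0.23 (SE 0.17), and it was -0.001 without siPATZ1 2. The other SIRT2 probe, ILMN_2398711, just missed detection on siPATZ1 2, with a detection p-value of 0.0117, and had signals of 121 and 143.6 in siPATZ1 cells, against 100.8 and 108.9 in siCTRL cells.

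SIRT6 is a chromatin deacetylase known for holding down glycolytic genes, and SIRT7 is a nucleolar enzyme linked to ribosomal RNA transcription. The SIRT6 probe ILMN_1654246 was not detected, with signals of 117.4 and 104.5 in siPATZ1 cells, against 112.1 and 95.27 in siCTRL cells, which overlapped. The SIRT7 probe ILMN_2077858 had signals of 171.7 and 185 in siPATZ1 cells, against 170.6 and 171.2 in siCTRL cells. Its direction depended on the scaling, because the signals as deposited were higher in siPATZ1 cells and the normalized values were lower. The log2 intensities were 6.68 and 6.73 in siPATZ1 cells, against 6.80 and 6.82 in siCTRL cells, a difference of -0.10 (SE 0.12), which was 0.0001 when the arrays were scaled to a common median.

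Of the 5 detected sirtuins, 1 (SIRT4) was at least 1.4-fold lower in siPATZ1 cells, a size reached by 7.42% of the 9435 genes tested, and 1 (SIRT5) was at least 1.4-fold higher, a size reached by 8.64%. Either direction was reached by 16.1% of genes. By probe, 2 of the 6 detected sirtuin probes were at least 1.4-fold higher and 1 was lower, beside 9.06% and 7.57% of the 15090 probes kept. Both siPATZ1 arrays were below both siCTRL arrays for SIRT1, SIRT4 and SIRT7, as for 29.9% of genes, and above them for SIRT5, as for 30.1%. Nothing is read from these shares, since the family was chosen on this contrast.

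In order of log2 difference the sirtuins were SIRT4, SIRT1, SIRT7, SIRT2 and SIRT5. SIRT4 was separated from SIRT1 by 1.13 (SE 0.19). SIRT1 and SIRT7 were 0.19 apart (SE 0.19), SIRT7 and SIRT2 were 0.34 apart (SE 0.21), and SIRT5 stood 0.69 above SIRT2 (SE 0.24). Each SE of a gap combines the SEs of its genes as if they were independent. The genes were measured on the same arrays, so the SE of a gap may be too small or too large. These gaps are a description like the differences themselves, and no order is read among SIRT1, SIRT7 and SIRT2. The separation of SIRT5 from SIRT2 was not tested either. Over all genes, these sirtuins included, 7 had a log2 difference at or below that of SIRT4 and 141 at or above that of SIRT5. Among the 8547 genes detected on every array, 3 were at or below SIRT4, itself included. These ranks are for the main processing only and were not taken under the alternatives. The SIRT4 value was -0.93 without background correction.

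**Figure D2:**
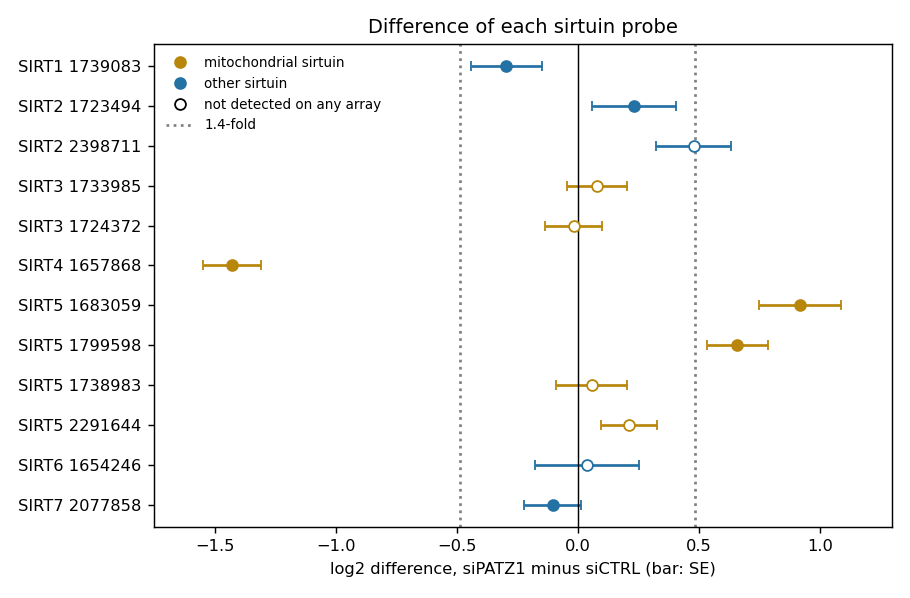
Log2 difference (siPATZ1 minus siCTRL, after background correction and quantile normalization) of each sirtuin probe, with the standard error of a limma fit. The fit was over all genes for a probe that stood for its gene, and over all probes for the others. Filled points were detected on all arrays and open points on none. An open point is the difference of undetected signals and is not a measured fold. The mitochondrial SIRT4 at -1.43 and SIRT5 at 0.92 and 0.66 were past the dotted 1.4-fold lines, and the detected probes of SIRT1, SIRT2 and SIRT7 lay between the lines.

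Set by compartment, the mitochondrial sirtuins did not share a direction. With SIRT3 undetected, the 2 detected members had opposite signs, and SIRT5 exceeded SIRT4 in log2 difference by 2.35. This contrast was 2.09 between the arrays numbered 1 and 2.60 between those numbered 2. It was smaller under some other processing. Without background correction SIRT4 had -0.93 and SIRT5 0.74, and with the authors' scaled table they had -0.90 and 0.80. The mean log2 difference was -0.26 over SIRT4 and SIRT5 and -0.06 over SIRT1, SIRT2 and SIRT7. The difference of these means was -0.20, beside a within-group standard deviation between arrays of 0.21. Over the alternatives the difference ran from -0.40 to -0.003. A mean over SIRT4 and SIRT5, which lay on opposite sides of 0, describes neither of them. The absolute log2 differences of SIRT1, SIRT2 and SIRT7 were between 0.10 and 0.29.

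**Figure D3:**
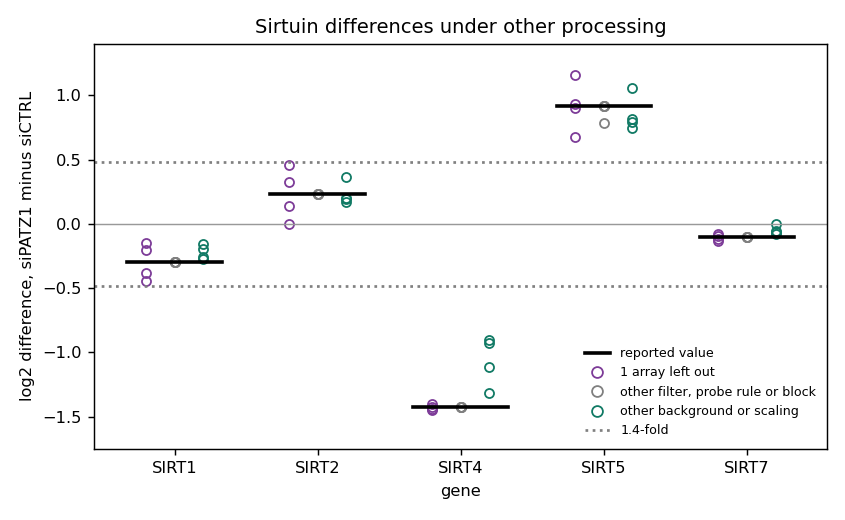
Log2 difference (siPATZ1 minus siCTRL) of the 5 detected sirtuins, with a bar for the value given in the text and a circle for each alternative, coloured by its kind. SIRT4 stayed between -1.45 and -0.90 and SIRT5 between 0.68 and 1.16, beyond the dotted 1.4-fold lines, while SIRT2 reached -0.001 and SIRT7 0.0001.

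The genes whose profile over the 4 arrays was nearest to that of SIRT4, by Euclidean distance of centred log2 values among the 8547 genes detected on every array, were CBFB (0.137), PATE2 (0.19), MAPK8 (0.22), TIMP3 (0.224) and CHCHD3 (0.234). Their log2 differences were -1.34, -1.26, -1.23, -1.26 and -1.23 in the same order. CHCHD3 codes for a protein of the mitochondrial inner membrane, CBFB for a partner of RUNX transcription factors, MAPK8 for the kinase JNK1 and TIMP3 for an inhibitor of metalloproteinases. Nearest to SIRT5 were CSTPP1 (0.093), SNTB1 (0.098), MYO5A (0.119), CCN1 (0.128) and MRFAP1 (0.13), with log2 differences of 0.91 to 0.99. On each of these, as for SIRT5, siCTRL 2 was the lowest array. With 4 arrays in 2 groups, likeness of profile is mostly likeness in the size of the difference.

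The supply of NAD and the other acyl and ADP-ribose enzymes were described next, from lists of genes drawn up for this family. Over all genes 7.76% were higher and 6.94% lower in siPATZ1 cells at an adjusted p under 0.05 (limma, Benjamini-Hochberg over 9435 genes). Either way it was 14.7%, with a median log2 difference of -0.0008. These shares include genes undetected in a group, unlike the counts from the lists. Listed genes detected on neither array of a group could enter only through the other group. They are given by their bound, without a p-value and outside the counts of genes that rose or fell. Of 28 NAD supply genes 17 were tested, with a median of -0.02. Of these, 1 rose, 1 fell, 14 did not pass and 1 was detected on neither array of a group. NADSYN1, the NAD synthetase, had signals of 396.3 and 450.8 in siPATZ1 cells, against 263.7 and 265.3 in siCTRL cells, and rose by 0.64 (SE 0.13, adjusted p = 0.0177, limma). SLC25A51, the carrier that brings NAD into mitochondria, had 6010 and 5971 in siPATZ1 cells, against 9479 and 8589 in siCTRL cells, a log2 difference of -0.73 (SE 0.12, adjusted p = 0.0113). Neither gene overlapped between the groups. HAAO, an enzyme of NAD synthesis from tryptophan, was not detected in siPATZ1 cells and had passed the filter only through siCTRL cells. It was at least 1.28-fold lower in siPATZ1 cells. NAMPT, the main enzyme of NAD salvage, which falls outside the rule for named genes, had 239.9 and 233.1 in siPATZ1 cells and 200.8 and 225.6 in siCTRL cells, with a log2 difference of 0.01 (SE 0.14).

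Of 20 other NAD consumers 11 were tested, with a median of -0.04. Among these, 10 did not pass and 1 was detected on neither array of a group. That gene was PARP12, an ADP-ribosyltransferase known as interferon-induced, with signals of 112.8 and 117.3 in siPATZ1 cells, where it was not detected, against 179.3 and 152.8 in siCTRL cells. It was at least 1.55-fold lower in siPATZ1 cells, and it had passed the filter only through siCTRL cells. Of 11 zinc-dependent deacetylases, which remove acetyl groups without NAD, 6 were tested and HDAC1 alone passed, with a median of -0.05. HDAC1 had signals of 7394 and 7478 in siPATZ1 cells, against 4681 and 4212 in siCTRL cells, a rise of 0.62 (SE 0.12, adjusted p = 0.0174). Its groups did not overlap.

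Of 20 genes known to act on sirtuins 15 were tested, and 1 rose, 1 fell and 13 did not pass, with a median of -0.04. ELAVL1, whose product HuR binds the SIRT1 messenger RNA, had 205.9 and 225 in siPATZ1 cells, against 262.6 and 310.3 in siCTRL cells, a log2 difference of -0.76 (SE 0.15, adjusted p = 0.0178, limma). The nuclear receptor gene NR2C2 rose by 0.49 (SE 0.12, adjusted p = 0.0325) on its brighter probe, while its other kept probe had -0.02.

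Targets of the mitochondrial sirtuins numbered 51, and of the 41 tested 5 rose, 1 fell and 35 did not pass, with a median of 0.10. The share that passed, 14.6%, was near the 14.7% over all genes. SOD2, the manganese superoxide dismutase and a known substrate of SIRT3, had signals of 2166 and 2326 in siPATZ1 cells, against 788.2 and 689.3 in siCTRL cells. It rose by 1.50 (SE 0.13, adjusted p = 0.0017, limma), or 2.82-fold, and its other kept probe had a log2 difference of 1.18. The mitochondrial proteases LONP1 and AFG3L2 rose by 0.88 (SE 0.13, adjusted p = 0.00825) and 0.61 (SE 0.12, adjusted p = 0.0187). ACAT1, of ketone body and isoleucine metabolism, rose by 0.55 (SE 0.12, adjusted p = 0.0268), and IVD, of leucine breakdown, by 0.59 (SE 0.14, adjusted p = 0.0316). CYCS, coding for cytochrome c, fell, with a log2 difference of -0.53 (SE 0.14, adjusted p = 0.0395). GLUD1, the glutamate dehydrogenase restrained by SIRT4, and CPS1, the first enzyme of the urea cycle and a target of SIRT5, fall outside the rule for named genes. GLUD1 had a log2 difference of -0.06 (SE 0.13, adjusted p = 0.798) and CPS1 one of -0.29 (SE 0.13, adjusted p = 0.176).

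Of 48 targets of the nuclear and cytosolic sirtuins 36 were tested, with a median of 0.08. Of these, 3 fell, 31 did not pass and 2 were detected on neither array of a group. The acetyltransferase gene KAT2B had signals of 228.4 and 251.5 in siPATZ1 cells, against 367.6 and 384 in siCTRL cells, a log2 difference of -1.05 (SE 0.13, adjusted p = 0.00374, limma). ELK4, a transcription factor linked to SIRT7 on chromatin, was not detected in siCTRL cells and entered only through siPATZ1 cells. On its brighter kept probe it was at least 1.36-fold higher there. Its other kept probe, detected on 2 arrays, had a log2 difference of 0.90. Without siPATZ1 2, when another probe stood for ELK4, the difference was -0.03, so the rise depended on the probe. The other 3 genes that fell or were undetected in a group belong to the circadian clock. PER2 had a log2 difference of -0.51 (adjusted p = 0.0468). BMAL1, likewise not detected in siCTRL cells, was at least 1.16-fold higher in siPATZ1 cells. CLOCK had -0.62 (adjusted p = 0.0191) on its brighter probe and 0.44 on its other kept probe, so the direction of CLOCK is uncertain. Of 11 glycolysis genes known to be held down by SIRT6, 9 were tested and ALDOC, an aldolase, alone passed. The median of this list was -0.19. ALDOC had 450.5 and 530.2 in siPATZ1 cells, against 735.4 and 722.8 in siCTRL cells, a log2 difference of -0.87 (SE 0.13, adjusted p = 0.00814).

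**Figure D4:**
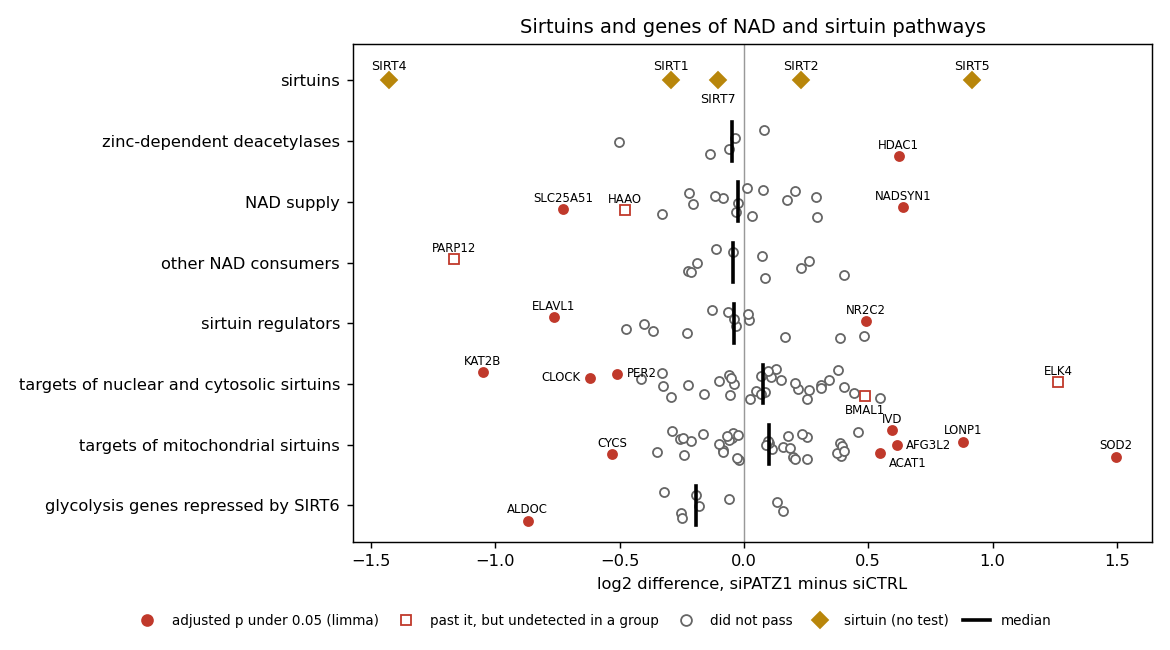
Log2 difference (siPATZ1 minus siCTRL) of the detected sirtuins, which carry no test, and of the tested genes of 7 lists around them, with a black bar at the median of each of the 7 lists and red for genes at an adjusted p under 0.05 (limma), as open squares where the gene was undetected in a group and its difference is not a measured size. The list medians lie between -0.19 and 0.10. Among listed genes detected in both groups, SOD2 at 1.50 and KAT2B at -1.05 are the farthest from 0.

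Of the 15 listed genes that passed and were detected in both groups, KAT2B and SOD2 also passed in all 13 alternatives fitted with limma. ALDOC passed in 12 and not without siPATZ1 1 (log2 difference -0.75, adjusted p = 0.0814). The other 12 passed neither without siPATZ1 1 nor without siPATZ1 2, with adjusted p between 0.0579 and 0.3. Of the 13 alternatives LONP1 passed in 11, HDAC1, NADSYN1, SLC25A51, ELAVL1 and AFG3L2 in 10, ACAT1 and CLOCK in 9 and IVD in 8. The least stable calls were NR2C2, which passed in 6, and PER2 and CYCS, which passed in 5. PER2 and CYCS were also lost with median scaling and with the authors' scaled table, CYCS without background correction, and NR2C2 and PER2 with the replicate block.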

How the data were processed

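Linear probe intensity of 47323 probes was deposited by the authors without background subtraction or normalization. Each array also has a deposited detection p-value per probe. A second deposited table held intensity scaled by the authors to a common array mean. The submitters' processing notes name GenomeStudio, and the background correction behind the study's own results was not given in the sources used here. The authors' methods name log2 values, a 1.4-fold threshold and Student's test.

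Unscaled intensities were corrected and normalized with neqc of limma 3.58.1 in R 4.3.3 (normexp from the detection p-values, an offset of 16, quantile normalization, log2). Symbols came from the platform annotation, updated through RefSeq's gene table for GRCh38.p14. A single gene was named for 30112 probes, several genes for 8 and none here for 17203. Probes entered where both arrays of a group had a detection p-value under 0.01, which left 15090 probes and 9435 genes, and the brightest kept probe by mean stood for its gene. Log2 differences are siPATZ1 minus siCTRL, fitted with lmFit and eBayes over all genes, with Benjamini-Hochberg adjustment. Probes that did not stand for their gene were fitted over all probes. A gene not detected in a group has only a bound there, computed against the lowest log2 intensity of detected probes on each array.

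The sirtuins, the gene lists and the marker lists were chosen with earlier results of these data known. The lists came from general knowledge, and GOT2 and MDH2 are in more than 1 of them. No p-value is given for a sirtuin. Named genes were all sirtuins and PATZ1, the members of each pathway list past an adjusted p of 0.05 and 1.4-fold (at most 6, by p), and the 5 nearest profiles of SIRT4 and of SIRT5. HAAO, NAMPT, GLUD1 and CPS1 fall outside this rule and were chosen after their values were seen, as were the genes beside each sirtuin and the letters GGGAGG. Promoter windows were searched on both strands. The scripts were tested on simulated data. Alternatives were other background corrections and scalings, 3 detection filters, the mean of a gene's kept probes, leaving out each array, a replicate block and the methods' t-test.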

Additional observations from a re-analysis of the deposited data

How the results depend on the processing

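The counts of sirtuins past 1.4-fold, 1 lower and 1 higher, held in the alternatives tried for them, several of which leave the sirtuin values as they are. The mitochondrial minus other difference kept its sign, but at -0.20 it was no larger than its within-group standard deviation of 0.21. Nothing is read from that sign. The counts here include the 4 listed genes undetected in a group. Median scaling moved the median of all genes by 0.124 (log2). It gave 1338 genes called higher and 382 lower, in place of 732 and 655, and called 2 other NAD consumers and 10 nuclear and cytosolic targets. The authors' scaled table gave 1130 genes higher. Without a detection filter 190 were higher and 147 lower, and the lists had 0 deacetylases, 0 NAD supply genes, 1 regulator, 2 nuclear and cytosolic targets and 2 mitochondrial targets. A detection p-value under 0.05 gave 2 deacetylases and 3 nuclear and cytosolic targets. Detection on all 4 arrays gave 0 other NAD consumers and 3 nuclear and cytosolic targets, because genes undetected in a group then had no value.

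With 1 array left out, 109 to 992 genes were called higher and 84 to 919 lower, with the low counts where a siPATZ1 array was left out and the lone siPATZ1 array was assumed to vary like the siCTRL arrays. The lists then had 0 to 2 deacetylases, 0 to 3 NAD supply genes, 1 to 2 other NAD consumers, 0 to 3 regulators, 1 to 7 nuclear and cytosolic targets, 1 to 7 mitochondrial targets and 0 to 1 glycolysis genes. The methods' t-test after Benjamini-Hochberg called 1 gene higher and 0 lower, and 0 in each list. At an unadjusted p under 0.05 it called 2 other NAD consumers, 8 nuclear and cytosolic targets, 12 mitochondrial targets and 2 glycolysis genes.

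Same-numbered arrays showed little shared deviation from their group means (correlation over genes -0.05). The labels do not say whether same-numbered samples were handled together. A fit with the replicate number as a block called 1 regulator and 3 nuclear and cytosolic targets, and moved no other count by more than 1.5 times. The signal over background limits SIRT3, SIRT6 and the NM_031244 probes of SIRT5, which cannot be compared, and the siPATZ1 value of SIRT4, which lies just above the detection threshold. Among the sirtuins, the log2 difference of SIRT4 was -0.93 without background correction, -1.12 with an offset of 50, -1.31 with median scaling and -0.90 with the authors' scaled table.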

Other observations

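The genes annotated next to each sirtuin were looked at after the sirtuin values had been seen. SIRT2 and NFKBIB, an inhibitor of NF-kappaB, start close together on opposite strands of chromosome 19. The SIRT2 window shares 147 and 150 bases with the 2 NFKBIB windows. The log2 difference, siPATZ1 minus siCTRL over 2 arrays each, was 1.47 (SE 0.13) for NFKBIB, beside 0.23 (SE 0.17) for SIRT2 on the same arrays. Next to SIRT4, PXN had -0.18 (SE 0.26), beside -1.43 (SE 0.12) for SIRT4. Next to SIRT5, GFOD1 had 0.16 (SE 0.18) and NOL7 had 0.14 (SE 0.12), beside 0.92 (SE 0.17) for SIRT5. DNAJC12 and HERC4, next to SIRT1, had 0.02 (SE 0.12) and 0.16 (SE 0.16), RIC8A next to SIRT3 had 0.09 (SE 0.14), and MAFG next to SIRT7 had -0.08 (SE 0.16). The tested genes beside SIRT4 and SIRT5 were thus under 1.4-fold. No gene next to SIRT6 was tested.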
